A study of Mus musculus with 2 samples.

Results

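Mir191 and Mir425 are a pair of microRNA genes on the plus strand of mouse chromosome 9, next to the protein-coding gene Dalrd3. They are 2 of the 2202 microRNA genes counted in this study. Both were selected by their symbols, for the high level of Mir191 and the closeness of its values in the 2 libraries. Their levels and their differences between the libraries are therefore descriptions, and no test was made on them.

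The samples were hippocampus (labelled as a layer of it) from male B6CASTF1/J mice, an F1 cross of C57BL/6J with CAST/EiJ, aged 36 days, with no treatment named. There is 1 group with 2 libraries, biological replicates 1 and 2, from separate tissue samples that carry the same donor label. Whether they came from separate animals is not given in the sources used here, so the spread between them may be technical. The question the labels give is the microRNA profile itself, with no second condition.

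A microRNA is cut from a hairpin in a longer primary transcript, first by Drosha in the nucleus and then by Dicer in the cytoplasm. One arm of the hairpin is usually kept by an Argonaute protein, and its seed, bases 2 to 8, pairs with target messenger RNAs to lower their output. Mir191 and Mir425 are known as products of 1 primary transcript, and both are raised in several tumour types. miR-191 is found in most tissues and has often served as a reference small RNA in quantitative assays. Dalrd3 encodes a partner of a methyltransferase that modifies arginine transfer RNAs.

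The mature arms show which targets each gene can reach, and they come from RefSeq (GRCm38.p6, the build of mm10). Both genes matched by symbol. Each arm is written 5′ to 3′ with the seed in capitals. The 5p arm of Mir191 lies at chr9:108568325-108568347, its 3p arm at chr9:108568367-108568388, the 5p arm of Mir425 at chr9:108568789-108568811 and its 3p arm at chr9:108568830-108568850, all on the plus strand.
miR-191-5p: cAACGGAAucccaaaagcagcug
miR-191-3p: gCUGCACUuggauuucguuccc
miR-425-5p: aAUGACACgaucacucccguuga
miR-425-3p: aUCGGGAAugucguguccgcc

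The 4 arms have 4 different seeds, so the neighbours form no seed family. Among the 1738 mature arms in the RefSeq table, the seeds of miR-191-5p, miR-191-3p and miR-425-3p occurred in no arm of another gene. The seed of miR-425-5p, AUGACAC, occurred in 1 other arm, miR-489-3p (chr6:3721922-3721944, minus strand), which is shown to compare the bases after the seed.
miR-489-3p: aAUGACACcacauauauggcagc

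Mir489 had 0 counts in both libraries, and a count of 0 is compatible with as many as 3. Scaled to a library total of 1000000 (CPM), 3 counts are 0.681 CPM in replicate 1 and 0.568 CPM in replicate 2. Mir425 was thus the only detected gene in the table with an arm of that seed.

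The hairpins show where the arms sit, with the arms in capitals. Mir191 (ENSMUSG00000105497.1) is annotated at chr9:108568319-108568392 and is 74 bases long. Mir425 (ENSMUSG00000065579.1) is annotated at chr9:108568777-108568861 and is 85 bases long.
Mir191: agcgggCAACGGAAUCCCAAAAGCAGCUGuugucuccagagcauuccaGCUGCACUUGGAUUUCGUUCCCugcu
Mir425: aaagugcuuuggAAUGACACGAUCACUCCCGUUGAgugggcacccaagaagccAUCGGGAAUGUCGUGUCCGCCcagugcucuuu

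The hairpins share no stretch longer than 5 bases with each other, and both are about equally rich in G and C (54.1% each). The longest stretch that Mir191 shares with any of 2200 other annotated microRNA hairpins is 11 bases, and for Mir425 it is 13 bases among 2201. Reads that match several places are in no gene's count. The rest of the genome was not searched for copies. The counts are per gene, so the 5p and 3p arms were not separated.

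The annotations differ on the host. In GENCODE M21, the annotation used for the counts, both hairpins lie in the non-coding gene 4833445I07Rik (chr9:108567533-108569174) and outside Dalrd3, which begins 1024 bases after the end of Mir425. Mir191 is inside the single exon of one transcript of 4833445I07Rik and inside the intron of the other. Mir425 is inside the same single exon, and the spliced transcript ends 2 bases before it begins. In RefSeq the record of Dalrd3 starts 835 bases before Mir191 and covers both hairpins (chr9:108567484-108572773). The one promoter window of Dalrd3 in the RefSeq table (chr9:108569642-108569941) lies 780 bases beyond Mir425. The name of the pair as Dalrd3 microRNAs therefore holds for the RefSeq record and not for the GENCODE M21 gene. No level of either host was measured in these libraries.

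**Figure D1:**
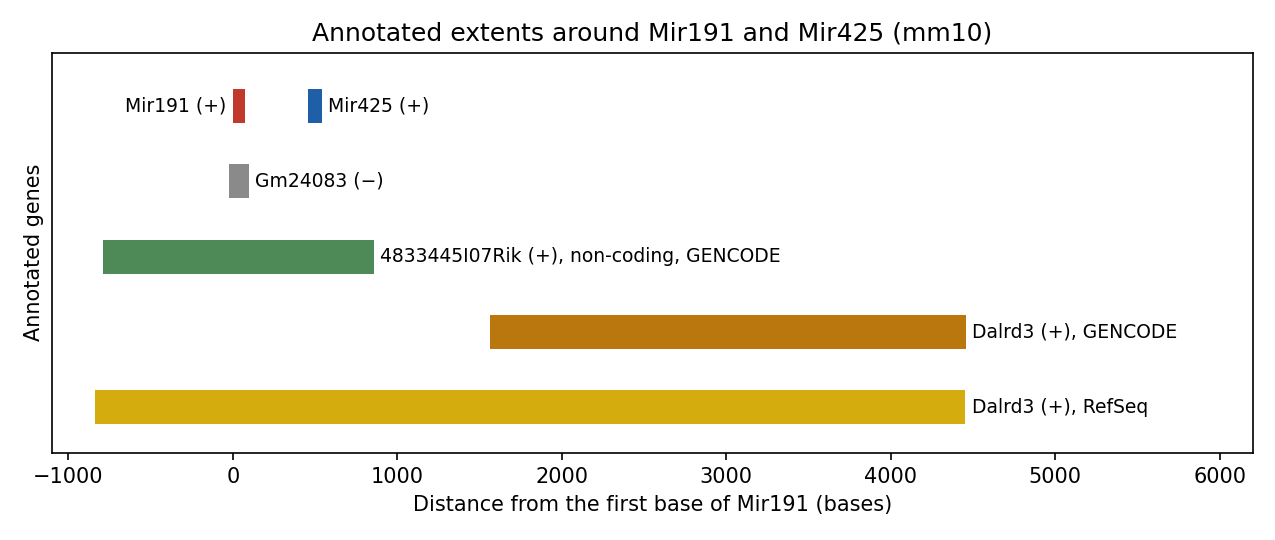
Extents of the annotated genes around the pair, on a scale of bases from the first base of Mir191, with the strand in brackets. The hairpins are 384 bases apart, inside 4833445I07Rik and the RefSeq record of Dalrd3, and 1024 bases lie between Mir425 and the GENCODE Dalrd3 gene.

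Of 12462653 reads in replicate 1, 4404040 were counted to a microRNA gene on its own strand, and of 15241166 reads in replicate 2, 5279877 were. Reads that matched several places were 40.3% of all reads in replicate 1 and 46.5% in replicate 2, and are in no gene's count. CPM values are relative to the own-strand totals. Of the 7 neuronal marker genes 4 had 10 or more counts in both libraries: Mir127, Mir132, Mir128-1 and Mir138-2. The neuronal markers summed to 86344 and 89646 CPM, of which Mir127 alone had a mean of 56482 CPM. The Mir124a genes had fewer than 10 counts in at least 1 library, and Mir124a-3 was at 0. Whether their reads were among those that matched several places was not tested. The oligodendrocyte markers summed to 5809 and 5649 CPM, and the liver marker Mir122 stood at 30.2 and 27.7 CPM. The vessel wall markers summed to 16250 CPM in replicate 1 and 43835 CPM in replicate 2, and the leukocyte markers to 3396 and 5414 CPM. In the same order, the choroid plexus markers summed to 747 and 1285 CPM. The vessel wall markers did not move alike. Their log2 ratios of replicate 2 over replicate 1, scaled as below, were 1.95 for Mir126a, -0.17 for Mir143 and 0.18 for Mir145a. The red blood cell markers found, Mir451a and Mir144, summed to 43.8 CPM in replicate 1 and 95.6 CPM in replicate 2. The listed Mir486a was not found under that symbol. A gene named Mir486 had a log2 ratio of -0.36, against 0.68 for Mir451a and 2.00 for Mir144. The muscle markers summed to 98.1 and 107 CPM, all from Mir206, since Mir1a-1 and Mir133a-1 were at 0 in both libraries. The part of these marker differences in the values below was not tested.

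Mir191 was among the microRNA genes with the highest counts. Its place is one among counted reads, since reads that matched several places are in no gene's count. It had 59918 counts in replicate 1 and 72091 in replicate 2. In level this was 13605 CPM in replicate 1 (95% exact binomial interval 13497 to 13714) and 13654 CPM in replicate 2 (13555 to 13753). The 2 values lie inside each other's intervals, which reflect counting error alone. Reads amplified by PCR and carrying no molecular identifier are not independent molecules. The mean was 13630 ± 34.4 CPM (SD, n = 2), or 1.36% of the counts, with the 14th place in replicate 1 and the 16th in replicate 2. Its coefficient of variation between the libraries, 0.253%, was smaller than that from counting alone, which was 0.409% in replicate 1 and 0.372% in replicate 2. This holds for own-strand totals. It does not hold for TMM or the other scalings whose log2 ratios are given below, since those ratios were larger in size. As Mir191 was chosen for its closeness between these libraries, nothing is read from its small spread.

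Mir425 was detected well above the counting floor, at a much lower level than its neighbour. It had 3976 counts in replicate 1 and 5134 in replicate 2. In level this was 903 CPM in replicate 1 (875 to 931) and 972 CPM in replicate 2 (946 to 999). These intervals do not overlap, so on the scale of own-strand totals the libraries differed by more than counting error, by a factor of 1.08. With DESeq2 size factors or a minimum of 100 counts they did not, as given below. The mean was 938 ± 49.2 CPM (SD, n = 2), which is 0.0938% of the counts, at places 98 and 99.

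**Figure D2:**
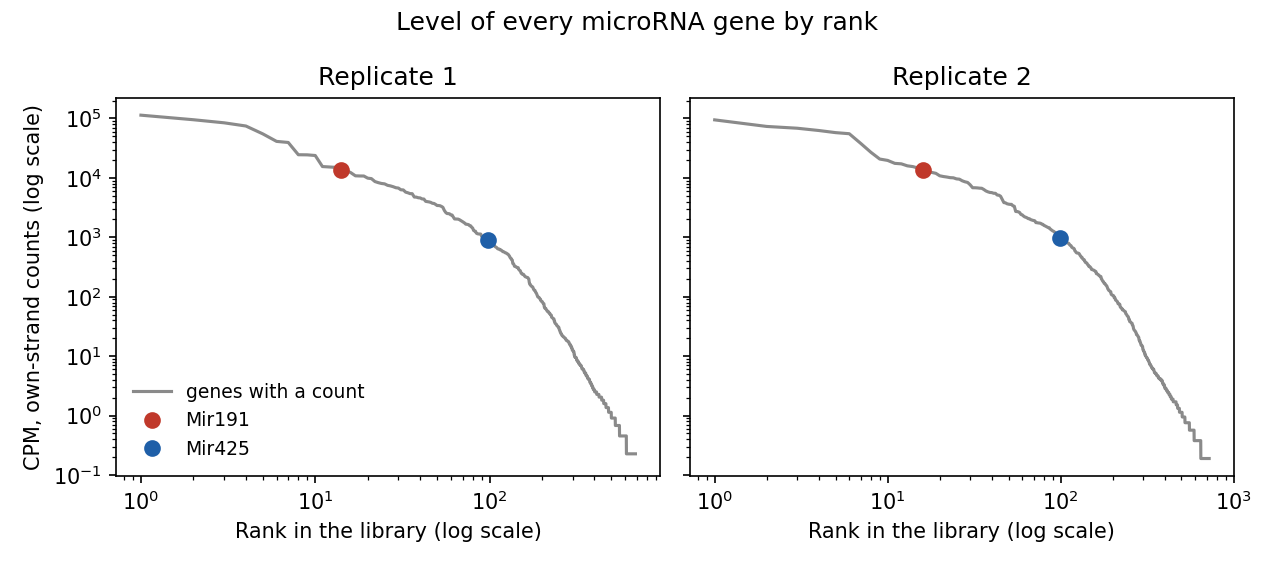
CPM of each gene with a count against its rank, on log axes, 1 panel per library, with Mir191 and Mir425 as coloured points. Mir191 sits on the shoulder of abundant genes at ranks 14 and 16 and Mir425 near rank 100 in both libraries.

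Neighbours in the order of levels show how far that order can be read. Directly above Mir191 in mean level stood Mir487b (13968 ± 1882 CPM), Mir23b (17106 ± 5196 CPM) and Mir132 (20543 ± 4655 CPM, all SD, n = 2). Directly below stood Mir433 (11365 ± 5243 CPM), Mir99b (11276 ± 11924 CPM) and Mir151 (10884 ± 1933 CPM). The ranges of Mir487b, Mir23b, Mir433 and Mir99b over the 2 libraries took in the values of Mir191, so its order against them is not fixed. Mir132, a microRNA induced by neuronal activity, was above Mir191 in both libraries, and Mir151 below it in both. The SD of Mir191 was the smallest of these 7 genes. Since Mir191 was chosen for the closeness of its values, nothing is read from that.

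Around Mir425 the levels were packed closely. Above it stood Mir204 (944 ± 370 CPM), Mir532 (972 ± 24.0 CPM) and Mir370 (981 ± 227 CPM). Below it stood Mir150 (916 ± 119 CPM), Mir431 (882 ± 30.0 CPM) and Mir381 (880 ± 375 CPM). All 6 overlapped Mir425 over the libraries, so none of these neighbours differs from it beyond the spread.

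The strand of the reads bore on Mir191 alone of the pair. The microRNA gene Gm24083 (chr9:108568295-108568414, minus strand, 120 bases) is annotated across the whole of Mir191 and holds its reverse complement. On its own strand Gm24083 had 0 counts in replicate 1 and 1 in replicate 2, at or under the floor of 3 counts. All but that 1 read over the overlap lay on the strand of Mir191. In the deposited column that ignores strand, Mir191 was listed at 0 in both libraries, although its own-strand counts equal 20.3% and 14.3% of the reads that column sets aside as ambiguous. Mir191 shares this with 21 other genes: 22 of the 411 genes with 10 or more own-strand counts in both libraries are listed at 0 there, and only Mirlet7e among them had a higher mean level. Mir425 overlaps no microRNA gene on the other strand and had 3976 and 5135 either-strand counts, of which 0 and 1 were on the opposite strand. The only other annotated microRNA gene within 100 kb, Gm26298, had 0 counts in both libraries on either strand.

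The neighbours differed by more than an order of magnitude in counts, and by nearly the same factor in both libraries. Mir191 had 15.1 counts for each count of Mir425 in replicate 1 (95% exact binomial interval 14.6 to 15.6). It had 14.0 in replicate 2 (13.6 to 14.4), and the mean was 14.6 ± 0.727 (SD, n = 2). The intervals do not overlap, so the ratio moved by more than counting error. Together the pair took 1.45% of the counts in replicate 1 and 1.46% in replicate 2, of which Mir191 gave 93.8% and 93.4%. How evenly different sequences are captured was not measured, so a ratio of counts need not be a ratio of molecules.

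That factor was set beside other clustered microRNA genes, taken as direct neighbours on 1 strand with starts at most 10 kb apart and 10 or more counts each in both libraries. There were 88 such pairs, 42 of them on chromosome 12, which holds the large imprinted cluster. Their median fold between partners was 9.51, and 36 pairs had a larger fold than Mir191 over Mir425. Over 10-fold in both libraries were 37 of the 88. Of the 58 pairs without a gene that shares 20 bases with another, the median fold was 7.69 and 18 had a larger one. A fold as large as that of Mir191 over Mir425 was thus common among neighbours.

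Fewer pairs held their fold as closely between the libraries. The log2 ratios of replicate 2 over replicate 1 differed by 0.10 between Mir191 and Mir425, against a median of 0.763 over the 88 pairs, and 8 pairs had a smaller difference. Mir191 was chosen for its closeness between these libraries, so nothing is read from that place. The pairs nearest in fold moved more. Mir770 had 23.1 and 10.2 times the counts of Mir673, both in the imprinted cluster. Mir487b had 24.9 and 11.0 times those of Mir381, and part of the sequence of that pair recurs in another hairpin, which makes its fold uncertain. Mir351 had 9.15 and 16.9 times those of Mir542 on the X chromosome.

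**Figure D3:**
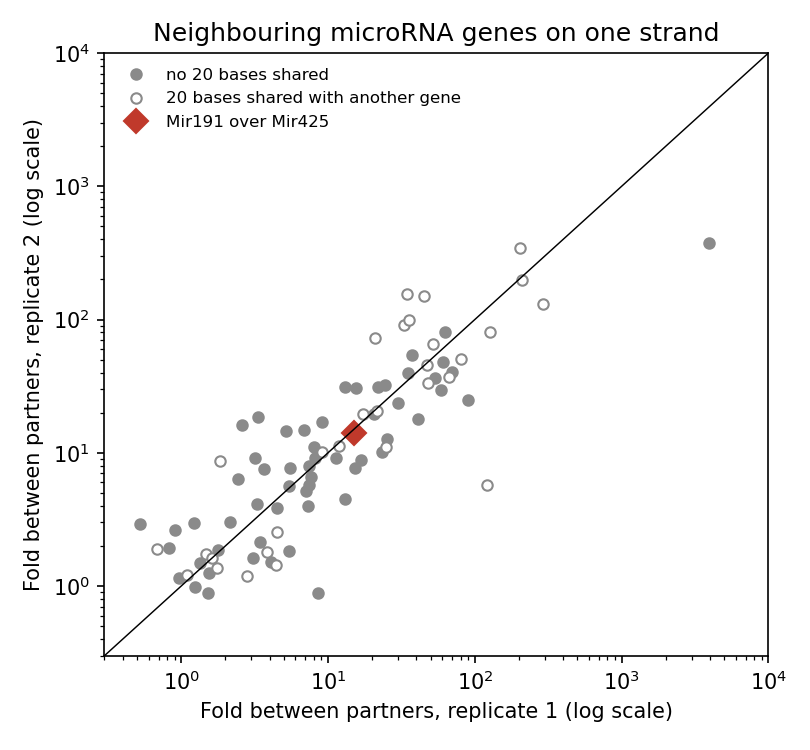
Counts of the higher partner over the lower partner in replicate 1 (horizontal) and replicate 2 (vertical), both log axes, for 88 neighbouring pairs, with open points for pairs that share 20 bases with another gene and a line of equal folds. Mir191 over Mir425 (red diamond) lies at 15.1 and 14.0, close to the line, amid a cloud that starts at about equal counts, and 1 pair lies far out at 3951 and 376.

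Between the libraries, neither gene moved by 1.5-fold. After scaling by TMM (the trimmed mean of ratios in edgeR) and with 1 CPM added, the log2 ratio of replicate 2 over replicate 1 was -0.012 for Mir191 (95% counting interval -0.028 to 0.0036) and 0.09 for Mir425 (0.030 to 0.15). Thus 0 of the pair passed 1.5-fold, beside 37.1% of the 504 genes with 10 or more counts in total, 121 higher and 66 lower in replicate 2. That contrast chose the pair, so the count is only a description. Of 85 genes with at least 1000 CPM in both libraries, 2 had a smaller log2 ratio in size than Mir191. Mir425, below 1000 CPM in both libraries, is not among these 85, of which 7 had a smaller ratio than it. Among the 504 tested genes, ordered from the smallest size, Mir191 took place 9 and Mir425 place 52, again only a description. Over all tested genes the median size was 0.445.

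The sign of such small ratios followed the scaling. For Mir191 the log2 ratio was 0.0052 by total own-strand counts, -0.024 relative to all reads, -0.064 with DESeq2 size factors and -0.15 when TMM used genes with 100 or more counts. For Mir425 the same 4 scalings gave 0.11, 0.078, 0.038 and -0.044. With that last scaling 313 genes were tested, of which 69 were past 1.5-fold higher and 60 lower (41.2%), beside 37.1% of the 504 genes with TMM. The counting interval of Mir191 took in 0 with TMM and total counts. It lay below 0 relative to all reads (-0.039 to -0.0079), with DESeq2 size factors (-0.079 to -0.048) and with the minimum of 100 counts (-0.16 to -0.13). The interval of Mir425 lay above 0 with TMM, total counts and all reads, and took in 0 with DESeq2 size factors (-0.022 to 0.098) and with the minimum of 100 counts (-0.10 to 0.016). The closeness of the libraries in Mir191 thus held to within 0.15 on the log2 scale under every scaling listed here, and the direction did not hold.

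**Figure D4:**
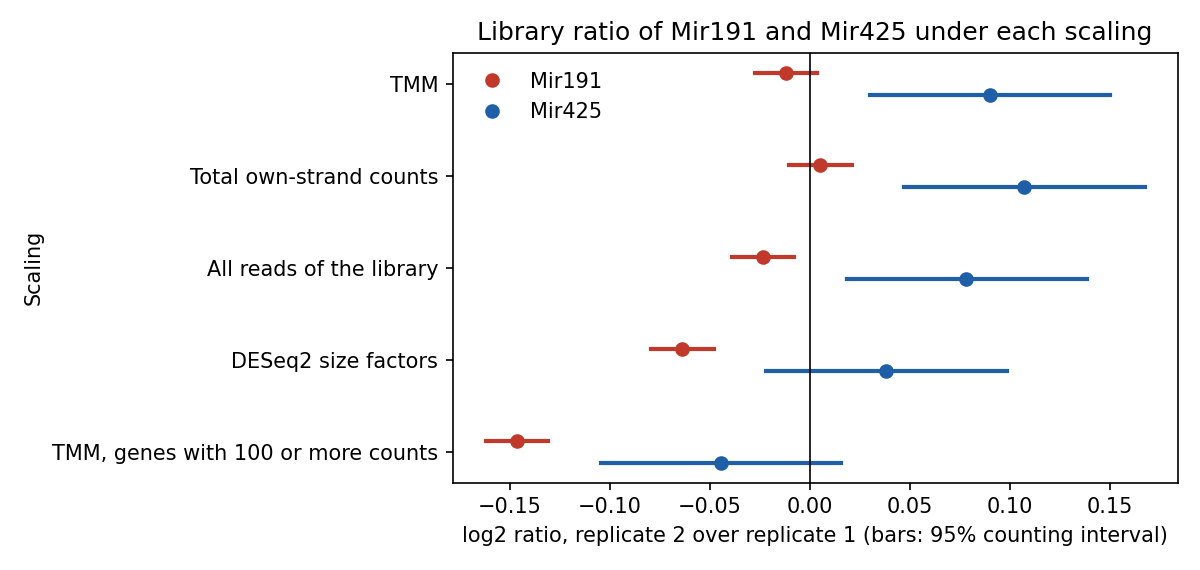
The log2 ratio of replicate 2 over replicate 1 (horizontal) for Mir191 and Mir425 under 5 scalings (vertical), with bars for the 95% counting interval. Both points shift together from scaling to scaling, because a scaling changes only the library sizes, which all genes share. Mir425 thus stays to the right of Mir191 by about 0.10.

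The genes whose library ratio lay nearest to the pair were taken from the 84 other genes with at least 1000 CPM in both libraries. Likeness over 2 libraries is a single ratio and says little. For Mir191 the nearest were Mir330 (log2 ratio -0.0061), Mir341 (-0.0040), Mir411 (-0.048), Mir219a-2 (0.047) and Mir708 (0.052). For Mir425 they were Mir127 (0.052), Mir708, Mir219a-2, Mir341 and Mir330. Mir330, in the Eml2 gene, had 36650 counts in replicate 1 and 44279 in replicate 2, at 8354 ± 45.6 CPM (SD, n = 2).

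Mir191 belongs to a group of microRNAs often used or proposed as references in small RNA assays, and 25 of these were listed here. All 25 had 10 or more counts in both libraries, 11 reached 1000 CPM in both, and the median mean level was 972 CPM. Mir191 was the second highest, after Mirlet7g (104296 ± 13411 CPM) and before Mir328 (8925 ± 2011 CPM), and Mir425 was 14th. Of the 25, 9 were past 1.5-fold higher and 4 past 1.5-fold lower in replicate 2, or 52.0%, beside 37.1% of all tested genes. The median log2 ratio of the list was 0.23, beside 0.054 over all tested genes. Without the 7 members that share 20 bases with another gene, 7 of 18 were past 1.5-fold (38.9%), close to the share of all genes.

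Single references ranged widely. Mir423 stood at 4334 counts in replicate 1 against 27210 in replicate 2 (log2 ratio 2.37). Mir320, made without Drosha, had 15107 and 8108 counts, a ratio of -1.18. In size of ratio, Mir191 was the smallest of the 25 and Mir425 took place 3, after Mir532 (-0.068). These places became 3 and 1 with DESeq2 size factors, and 6 and 3 when TMM used genes with 100 or more counts. Nothing is read from the place of Mir191, which was chosen for its closeness between these libraries. Scaling every gene to the count of Mir191 left 188 of 504 genes past 1.5-fold, against 187 with TMM, and scaling to Mir425 left 193. The ratios of both genes after TMM are near 0 and Mir191 was chosen for it, so these near-equal counts follow from the choice.

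**Figure D5:**
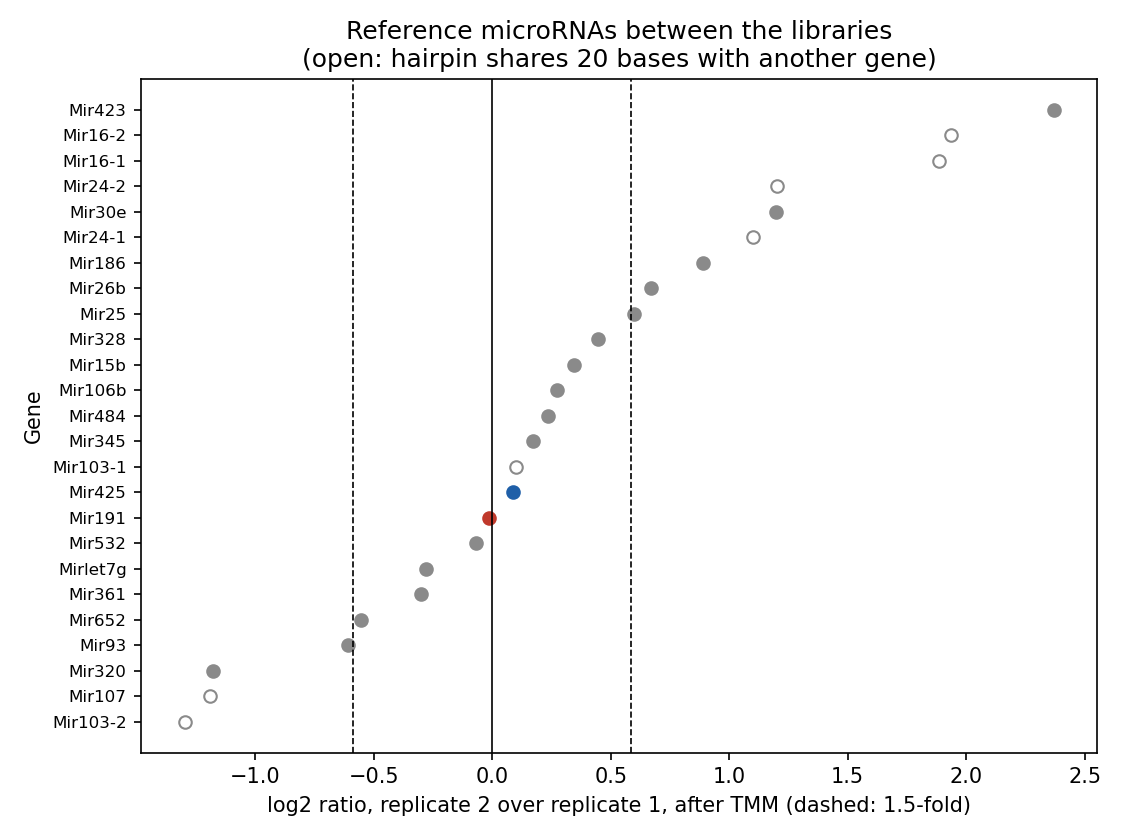
The log2 ratio of replicate 2 over replicate 1 after TMM (horizontal) for the 25 reference microRNAs, sorted, with dashed lines at 1.5-fold and open points for genes that share 20 bases with another gene. Mir191 (red) and Mir425 (blue) sit next to each other near 0, while the list runs from Mir103-2 at -1.30 to Mir423 at 2.37.

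A second list held 26 broadly expressed microRNAs commonly described as intronic in protein-coding genes. In GENCODE M21, 20 of them lay in introns of a protein-coding gene on their strand and 4 touched an exon of one. The remaining 2 were Mir191 and Mir425, whose only same-strand host there is non-coding. Mir191 was second in level after Mir744 (33254 ± 8830 CPM) and ahead of Mir151, and Mir425 was 12th. Of the 26, 8 were past 1.5-fold higher and 4 lower in replicate 2 (46.2%), beside 37.1% of all tested genes. The median log2 ratio of the list was 0.12, beside 0.054 over all tested genes. Only Mir330, at -0.0061, had a smaller ratio in size than Mir191, which was chosen for its closeness between these libraries.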

How the data were processed

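Small RNA of 2 hippocampus libraries was counted per microRNA gene. The authors deposited raw counts, 1 file per library, mapped to mm10 and counted against GENCODE M21, per the notes deposited beside the count files. The aligner is not given in the sources used here. That the 3 count columns hold either-strand, own-strand and opposite-strand reads was read from the values. Own-strand counts were used. Lines that name no gene (64.7% and 65.4% of the reads) were left out. All 2202 identifiers matched GENCODE M21.

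CPM uses the own-strand total of a library. Genes with at least 10 counts over both libraries entered the log2 ratios, which add 1 CPM after TMM scaling in edgeR 4.0.16 under R 4.3.3 (0.994 for replicate 1, 1.01 for replicate 2). With 1 group edgeR's quasi-likelihood test has no contrast. Intervals are exact Clopper-Pearson at 95%, from scipy 1.17.1 for the levels and the pair ratio and from R for the log2 ratios. The intervals of the log2 ratios use the counts of both libraries without the 1 CPM added. DESeq2 1.42.0 gave other size factors. The ratio script was tested on simulated data. Python 3.11.15, pandas 2.3.3, numpy 2.4.6 and matplotlib 3.10.9 were used.

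Members and lists were chosen with earlier results of these data known. Named genes are the pair, the 3 genes next above and below each in level, the 5 nearest in library ratio among genes with 1000 CPM in both libraries, microRNA genes overlapping or within 100 kb, detected genes that share a seed, the 3 highest of each list and the 3 pairs nearest in fold. Mir423, Mir320, Mir532, Mir103-2, Mirlet7e and Mir489 were named after their values were seen.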

Additional observations from a re-analysis of the deposited data

How the results depend on the processing

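The levels depended on the column and the denominator. With either-strand counts Mir191 stood at 0 CPM and at 0 counts per count of Mir425, and Mir425 at 1021 CPM. Relative to all reads they stood at 4769 and 328 counts per 1000000. Leaving out either replicate gave 13605 to 13654 CPM for Mir191, 903 to 972 CPM for Mir425 and 14.0 to 15.1 for their ratio. The log2 ratio of Mir191 left its counting interval by total counts (0.0052), with DESeq2 size factors (-0.064), with a minimum of 100 counts (-0.15) and scaled to Mir425 (-0.10, added after seeing the data). That of Mir425 did so with the minimum of 100 counts (-0.044). Other pseudocounts left both inside it. With 10 CPM added, 113 genes were past 1.5-fold in place of 187, and 129 with the minimum of 100 counts, where fewer genes were tested. Without members sharing 20 bases, 7 of 18 reference microRNAs were past it in place of 13 of 25 (38.9% and 52.0%), as 6 of the 7 members left out were past it, and 12 or 13 under 6 other scalings added after seeing the data. Clusters of 50 kb gave a median fold of 9.58 in place of 9.51. Of 54 ratios of 18 other named genes under 3 scalings, 7 changed sign, none of them past 1.5-fold. No paired analysis was possible because there is 1 group.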
